A study of Homo sapiens with 14 samples.

Results

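The comparison sets the control state of 2 human T cell acute lymphoblastic leukemia (T-ALL) lines, CUTLL1 and CEM, side by side. Both lines had been infected with a retrovirus carrying a short hairpin against Renilla luciferase, a gene that human cells lack, so that these cells serve as the hairpin control. A gene was included when it had at least 50 reads in the control column of either line. This left 18451 of the 55075 genes in the deposited tables, 13179 of them protein-coding. The labels give 3 Renilla samples of CUTLL1 and 2 of CEM, of 14 samples in all. The deposited columns pool them, so each line has 1 control value per gene and no spread between cultures can be given. At the edge of the inclusion rule, ACOT11 with 50 and 22 reads in CUTLL1 and CEM was inside, and ADAP2 with 49 and 20 reads was outside.

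T-ALL arises from immature T cells, and its subtypes are usually told apart by the stage at which the cells are arrested and by the transcription factor that is switched on. Thymocytes first carry progenitor genes such as CD34, then rearrange the T cell receptor beta locus and signal through the pre-T cell receptor, and then pass through a cortical stage marked by CD1 and CD8. Signalling through NOTCH1 is active in most T-ALL, and CUTLL1 carries a translocation that joins the T cell receptor beta locus to NOTCH1.

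Cells of both lines grew in suspension in RPMI medium. The other columns of the series, used here as further pairs of the same 2 lines, come from cells infected with hairpins against JMJD3 (gene KDM6B, 3 CUTLL1 and 2 CEM samples) or UTX (gene KDM6A, 2 samples of each line), both of them demethylases of histone H3 lysine 27. Each line derives from 1 patient, so a difference between the lines is a difference between 2 cell lines and not between subtypes of T-ALL. The 3 hairpin pairs share no column. Triplets of values below are in the order shRenilla, shUTX, shJMJD3. Levels are counts in every 1000000 reads of the column (CPM), and ratios are log2 of CUTLL1 over CEM after scaling to column totals, with 0.5 reads added.

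The 6 columns held between 70280185 and 174301733 reads, with 144394369 in the CUTLL1 control and 104190473 in the CEM control. A second, larger CUTLL1 Renilla column of 258014046 reads was deposited beside shJMJD3, and the reads it holds beyond the first, 113619677, are called the remainder here. The make-up of the RNA moved with the line. Genes of the replication histones, whose messages mostly lack a poly-A tail, took 5.32% of the CUTLL1 control and 0.0252% of the CEM control, and snoRNA and scaRNA genes took 1.73% and 0.0362%. Messenger RNA encoded in mitochondria took 0.0686% and 2.79%. The protocol names poly-A selection or ribosomal depletion without saying which sample received which, so RNA selection and line cannot be told apart. The remainder differed further, with 12.2% of its reads in the class misc_RNA against 0.0803% in the CUTLL1 control. Both lines carried T cell markers: CD3D stood at 1014 and 507 CPM in the CUTLL1 and CEM controls, CD3G at 503 and 296, CD7 at 250.2 and 164, and LCK at 823 and 566. CD5 stood at 337 and 130 CPM, CD2 at 82 and 37, and CD247 at 122 and 92. CD3E went the other way, at 443 and 1175 CPM, and CD1A was low in both, at 15.6 and 13.5 CPM. Of 19 B lineage markers 5 and 8 reached 50 reads in CUTLL1 and CEM, of 21 myeloid markers 5 and 6, of 26 NK and cytotoxic markers 11 and 12, of 21 erythroid and megakaryocyte markers 3 and 3, and of 17 fibroblast and epithelial markers 5 and 6. MS4A1, CD33, ITGAX, ELANE, NCR1 and HBG1 were at 0 in both controls.

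**Figure D1:**
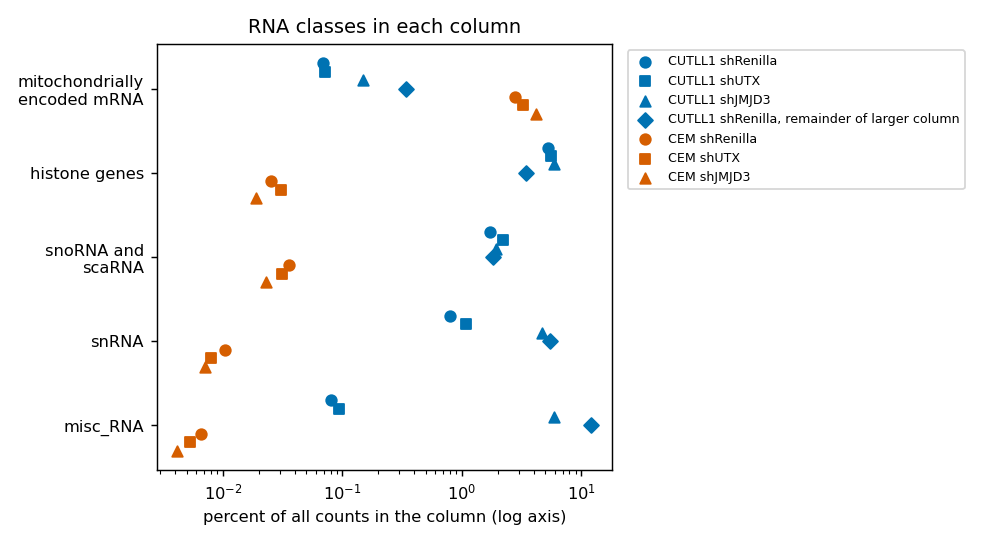
Share of all reads of a column, in percent on a log axis, that fell in genes of 5 RNA classes; blue symbols are the CUTLL1 columns and orange symbols the CEM columns, with the shape giving the hairpin. Histone genes took 5.32% of the CUTLL1 control and 0.0252% of the CEM control, and mitochondrially encoded messages 0.0686% and 2.79%.

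The targeted genes check the hairpin labels. KDM6A stood at 43.0, 19.3 and 32.5 CPM in CUTLL1 and 136, 51.5 and 86.7 CPM in CEM, lowest in the shUTX column of each line. KDM6B stood at 21.5, 28.2 and 10.9 CPM in CUTLL1 and 206, 198 and 52.2 CPM in CEM, lowest in the shJMJD3 column of each. Both demethylases were lower in the CUTLL1 control than in the CEM control. KDM6B was 9.59-fold lower (log2 -3.26, 95% counting interval -3.32 to -3.21) and KDM6A 3.16-fold lower (-1.66, -1.70 to -1.62). The line difference, estimated by edgeR's quasi-likelihood test with the 3 hairpins as blocks, was -2.48 ± 0.26 (SE) for KDM6B with an adjusted p of 0.00664 and -1.19 ± 0.14 for KDM6A with an adjusted p of 0.0077, in the same direction in 3 of 3 pairs.

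Between the controls, 3001 genes were at least 2-fold higher in CUTLL1 (16.3% of those included) and 5258 at least 2-fold lower (28.5%). The median log2 ratio of all included genes was -0.26. Scaling by edgeR's TMM factors raised every control ratio by 0.26, and the split became 3773 higher and 4338 lower. When mitochondrial, histone and small RNA genes were left out of the totals, every ratio rose by 0.20 and the split was 3557 and 4531. Ratios below are best read against that shift, and the counts of each gene list at 2-fold against the shares of 16.3% and 28.5%. Of the genes at least 2-fold higher, 2621 (87.3%) were so in the shUTX pair and 2062 (68.7%) in the shJMJD3 pair, where 75 (2.50%) were at least 2-fold lower. Of the genes at least 2-fold lower, 4703 (89.4%) and 3488 (66.3%) kept that fold, and 363 (6.90%) were at least 2-fold higher in the shJMJD3 pair. None turned in the shUTX pair. The 2-fold difference was present in all 3 pairs for 1903 genes (10.3%) higher and 3263 (17.7%) lower in CUTLL1. Among protein-coding genes 1726 (13.1%) were higher and 3454 (26.2%) lower in the control pair, and 952 (7.22%) and 2299 (17.4%) in all 3 pairs. The edgeR test over the 3 pairs, at an adjusted p under 0.05, called 4301 of 23112 genes tested higher in CUTLL1 (18.6%) and 3994 lower (17.3%). All 18451 included genes were tested, and 3788 and 3640 of them were called. Here the hairpins stand in for replicates, with 2 residual degrees of freedom, so the p-values measure the spread of the line difference over hairpins and not over cultures. Without the shRenilla pair the test called 899 higher and 1105 lower, without the shUTX pair 928 and 1147, and without the shJMJD3 pair 7940 and 8014. Set against the same CEM column, the remainder of the larger CUTLL1 column gave a median of -0.87 over all included genes and smaller ratios for some genes named below, such as MAF at 3.15, NCAM1 at 1.11 and CD1E at 4.09 in place of 7.67, 4.95 and 5.05.

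**Figure D2:**
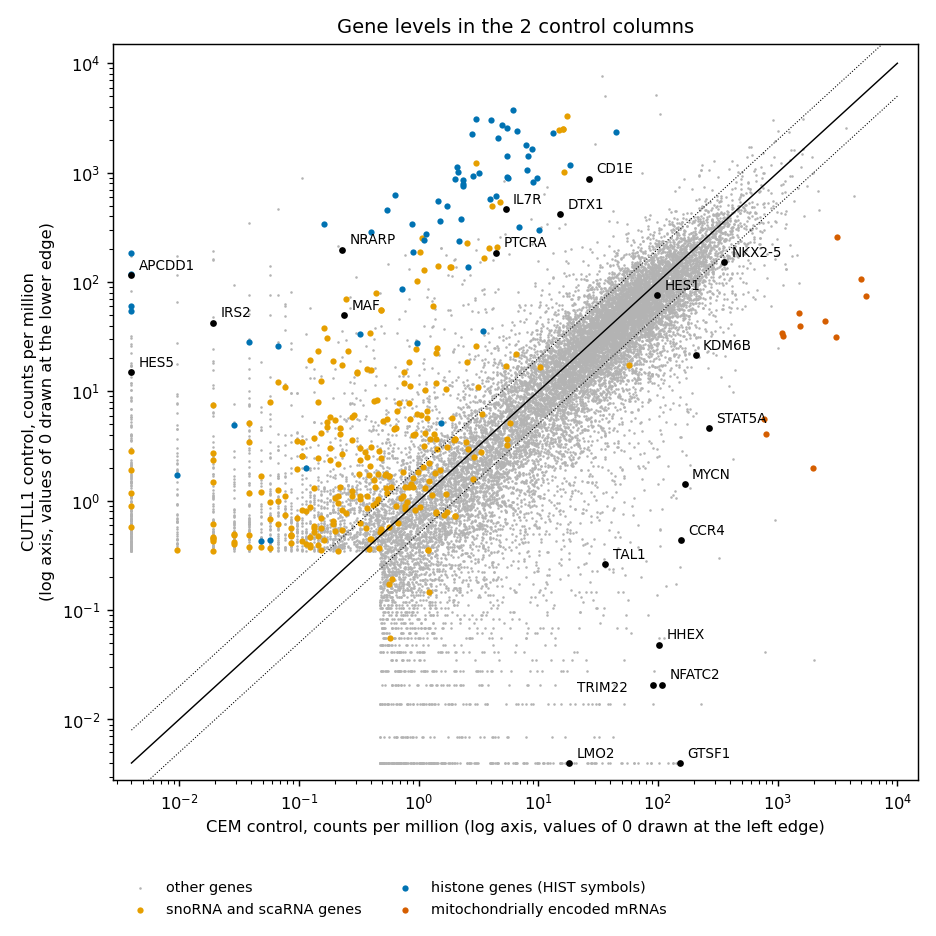
Level of each of the 18451 genes in the CEM control (horizontal) and the CUTLL1 control (vertical), in CPM on log axes, with the line of equal levels and dotted lines at 2-fold. Histone genes lie above the line and mitochondrially encoded messages below it; NOTCH targets such as NRARP and HES5 lie far above it and TAL1, LMO2 and HHEX far below.

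Some of the 18451 included genes were read in 1 control column and had no read in the other. Such a gene was included only through its 50 or more reads in the other column. With 1 pooled column per line, no read does not show that a gene is absent. In CEM, 211 included genes had no read, 89 of them protein-coding, and in CUTLL1 218 had none, 116 of them protein-coding. A 64-fold or larger difference was seen for 212 protein-coding genes higher in CUTLL1 and 327 higher in CEM. The genes named next were chosen for the size of the smallest ratio over the 3 pairs, among protein-coding genes with at least 500 reads in a control, so their ratios are a description. On the CUTLL1 side stood APCDD1, an inhibitor of WNT signalling, at 116, 82.8 and 60.1 CPM in CUTLL1 and 0 in each CEM column, at least 4027-fold higher in the control when 3 reads are set for the CEM column at 0. PPARG, a nuclear receptor that drives fat cell differentiation, stood at 66.0, 78.2 and 31.1 CPM in CUTLL1 and 0.00960, 0 and 0 CPM in CEM. BEST3, a chloride channel, stood at 194, 186 and 122 CPM in CUTLL1 and 0.0192, 0.0141 and 0 CPM in CEM, and SALL3, a zinc finger factor, at 162, 139.6 and 91.6 CPM in CUTLL1 and 0.0192, 0.0988 and 0.0285 CPM in CEM. CBR1, a carbonyl reductase, TEAD1, a DNA-binding partner of YAP, LRIG3 and OAT, the mitochondrial ornithine aminotransferase, had no read in the CEM control and 3722, 1722, 2495 and 8293 in CUTLL1. EXD3 and CCDC50 had 24782 and 7940 reads in CUTLL1 and none in CEM. The list is completed by the histone genes HIST3H2BB and HIST3H2A, with 26576 and 17013 reads against none. They belong to a class for which RNA selection and line cannot be told apart.

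On the CEM side stood genes that T cells do not usually express as well as receptors of mature lymphocytes. GTSF1, a germ line factor of the piRNA pathway, stood at 152, 166 and 210.4 CPM in CEM and at 0 in each CUTLL1 column, at least 7332-fold higher in the CEM control. PXDN, a peroxidase of the extracellular matrix, stood at 134, 154 and 109.9 CPM against 0 in each CUTLL1 column. KIR3DL2 and KIR3DL1, inhibitory receptors of NK and some T cells, had 12545 and 5742 reads in the CEM control and none in CUTLL1. These paralogs are near-identical in part, and no source used here says how reads that fit both were shared. CDH2, or N-cadherin, stood at 0, 0 and 0.00574 CPM in CUTLL1 and 132, 138 and 89.0 CPM in CEM. LIN28B, which blocks maturation of let-7 microRNAs and marks fetal progenitors, stood at 34.2, 30.6 and 39.6 CPM in CEM and at 0 in each CUTLL1 column. ANGPT1, the ligand of the receptor TIE2, WFS1, the endoplasmic reticulum protein wolframin, MPST, KCTD15, KCTD3 and ZNF649 had between 2850 and 9140 reads in CEM and none in CUTLL1.

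CUTLL1 carried higher levels of several genes of the cortical thymocyte stage, and the markers of early progenitors differed in both directions. Each column pools the RNA of a culture, so fewer cells with a gene and less RNA per cell cannot be told apart. Of 34 included surface markers of thymocyte stages, 15 were at least 2-fold higher in the CUTLL1 control and 4 lower. These are 44.1% and 11.8%, against 16.3% and 28.5% of all included genes. EdgeR called 14 higher and 5 lower. The median ratio was 0.79, 1.14 and 0.00 in the 3 pairs, so the shift of the list as a whole was absent in the shJMJD3 pair. CD1B, which presents lipids to T cells, stood at 736, 603 and 571 CPM in CUTLL1 and 11.8, 6.10 and 4.87 CPM in CEM. CD1E, its intracellular relative, stood at 876, 874 and 748 CPM in CUTLL1 and 26.4, 11.8 and 17.0 CPM in CEM. The control differences were 62.4-fold and 33.2-fold, and the edgeR adjusted p was 0.00185 for CD1B and 0.00226 for CD1E. Each CUTLL1 column of both genes was above each CEM column, and how many of all genes show such a gap was not counted. CD1C and CD1D were higher in CUTLL1 in 3 of 3 pairs, at log2 ratios of 1.89, 2.59 and 2.53 for CD1C and 1.91, 1.86 and 2.25 for CD1D. CD1A, the usual marker of the cortical stage, did not share this, with 15.6, 12.3 and 20.0 CPM in CUTLL1 and 13.5, 9.77 and 2.87 CPM in CEM and an edgeR adjusted p of 0.172.

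The CD8 co-receptor genes were higher in CUTLL1 as well. CD8B stood at 56.7, 48.4 and 55.9 CPM in CUTLL1 and 1.37, 0.819 and 0.484 CPM in CEM (edgeR adjusted p 0.00281), and CD8A at 143, 108 and 70.3 CPM in CUTLL1 and 32.7, 25.1 and 5.04 CPM in CEM (adjusted p 0.0146). CD4 was not called, at 194, 209.9 and 171 CPM in CUTLL1 and 138, 160.0 and 448 CPM in CEM, where the shJMJD3 column of CEM alone was above the CUTLL1 columns. On the other side, CD34, a marker of blood progenitors, was 39.0-fold lower in the CUTLL1 control at 0.104, 0.0589 and 0.143 CPM in CUTLL1 and 4.05, 7.37 and 16.9 CPM in CEM (edgeR adjusted p 0.00446). CD44, an adhesion receptor of progenitors and activated T cells, stood at 20.5, 22.6 and 26.8 CPM in CUTLL1 and 219, 121 and 259 CPM in CEM, and MME, the endopeptidase CD10 found on lymphoid progenitors, at 22.6, 26.5 and 15.9 CPM in CUTLL1 and 183, 272 and 81.5 CPM in CEM. Both were lower in CUTLL1 in 3 of 3 pairs, with edgeR adjusted p 0.005 and 0.00622. PROM1, or CD133, another progenitor marker, was higher in CUTLL1 at 2.33, 3.31 and 1.94 CPM in CUTLL1 and 0, 0.0847 and 0.0854 CPM in CEM (edgeR adjusted p 0.0186). KIT, the receptor for stem cell factor, had ratios of 2.53, 1.46 and -0.42 and was not called. Other lineage antigens differed less: CD2 was higher in CUTLL1 (log2 1.17, 1.48 and 1.45), and CD7 and CD6 were higher in the control by 0.61 and 1.25 with values of 0.00 and 0.44 in the shJMJD3 pair.

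Of 10 genes of the pre-T cell receptor and of V(D)J recombination, 2 were at least 2-fold higher in the CUTLL1 control and none lower. The share higher, 20%, was near the 16.3% of all included genes. The same 2 were called by edgeR. PTCRA, the invariant alpha chain of the pre-T cell receptor, stood at 186, 167 and 140.0 CPM in CUTLL1 and 4.43, 1.26 and 1.37 CPM in CEM, a 41.9-fold control difference (95% counting interval of the log2 ratio 5.26 to 5.52, edgeR adjusted p 0.00313). RAG2, which forms the recombinase with RAG1, stood at 112, 91.9 and 85.6 CPM in CUTLL1 and 42.8, 36.0 and 8.44 CPM in CEM (adjusted p 0.0323). RAG1 itself was not called, with ratios of -0.23, -0.53 and 2.05, nor was DNTT, which adds bases at the joins, with 0.69, 0.20 and -0.43.

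**Figure D3:**
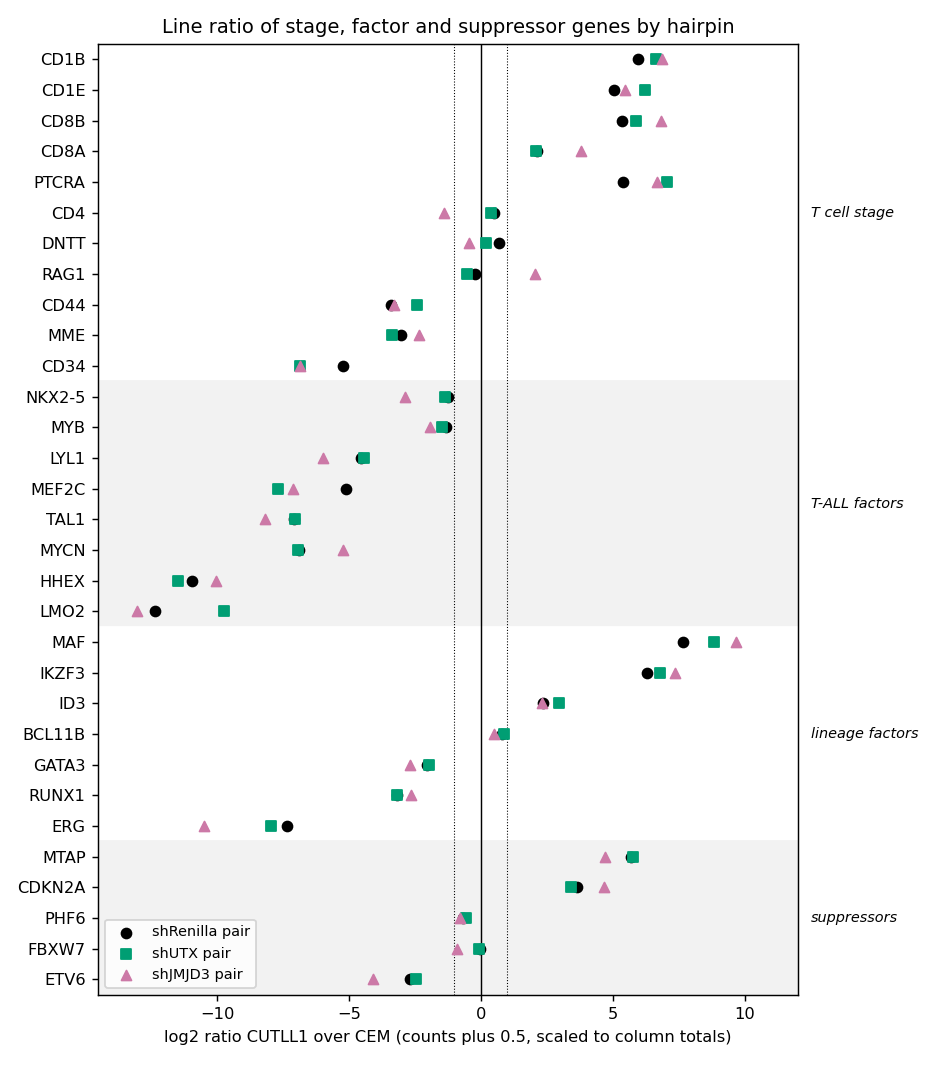
Log2 ratio of CUTLL1 over CEM for 31 genes of T cell stage, leukemia factors, lineage factors and tumour suppressors; black circles are the shRenilla pair, green squares the shUTX pair and pink triangles the shJMJD3 pair, and dotted lines mark 2-fold. The 3 pairs lie on the same side of 0 for most genes, with PTCRA between 5.39 and 7.05 and TAL1 between -8.19 and -7.04.

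At the T cell receptor loci each line had its own leading V segments. The beta locus of the CUTLL1 control was dominated by TRBV6-6, with 128810 of the 138687 reads in TRBV genes (92.9%, Wilson 95% interval 92.7 to 93.0). CEM used TRBV3-1, with 81465 of 86212 reads (94.5%, 94.3 to 94.6). TRBV6-6 had 11 reads in CEM and TRBV3-1 had 6 in CUTLL1. At the alpha locus 2 segments stood out in CUTLL1, TRAV9-2 with 51.3% and TRAV1-1 with 41.8% of 59507 reads. CEM had TRAV29DV5 with 75.9% and TRAV27 with 16.2% of 19271 reads. At the gamma locus CUTLL1 had TRGV2 with 98.1% of 6808 reads and CEM TRGV3 with 83.5% of 3601 reads. The leading beta segment kept its rank in the other columns, at 92.5% and 93.4% in the shUTX and shJMJD3 columns of CUTLL1 and at 94.1% and 83.2% in those of CEM. Over 80 included receptor segments 52 were at least 2-fold higher in CUTLL1 and 21 lower, with 49 and 18 called by edgeR. The shares were 65% and 26.2%, against 16.3% and 28.5% of all included genes. V segments are close paralogs and reads were 50 bases long, so reads of 1 rearranged segment may be counted under its relatives. The intervals cover counting error alone.

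Of 48 included genes for CD3 chains and proximal signalling, 7 were at least 2-fold higher in the CUTLL1 control and 12 lower (14.6% and 25%, near the 16.3% and 28.5% of all included genes), and edgeR called 16 higher and 13 lower. Lower in CUTLL1 were NFATC2, the calcium-dependent factor NFAT1, and PAG1, an adaptor that recruits the kinase CSK. NFATC2 stood at 0.0208, 0.0393 and 0.0459 CPM in CUTLL1 and 109, 111 and 132 CPM in CEM, so that 3 reads in the CUTLL1 control faced 11362 in CEM (log2 -12.14, counting interval -14.64 to -10.81, edgeR adjusted p 0.00122). PAG1 stood at 3.79, 3.04 and 1.74 CPM in CUTLL1 and 157, 143 and 104 CPM in CEM (adjusted p 0.00122). NFATC1 and NFATC3, the other members of the family in the list, were at log2 ratios of 0.02 and -0.02 in the control pair and were not called. The adaptors SKAP1 and LCP2, known as SLP-76, were lower in CUTLL1, with control ratios of -3.67 and -2.02. CD3E was lower as well at 443, 430.0 and 332 CPM in CUTLL1 and 1175, 1181 and 991 CPM in CEM, while CD3D and CD3G were called higher, by log2 1.0 and 0.76 in the control pair and by 0.21 and 0.28 in the shJMJD3 pair.

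Higher in CUTLL1 were the inhibitory receptor gene PDCD1, or PD-1, and a set of kinases and exchange factors. PDCD1 stood at 56.0, 43.5 and 24.6 CPM in CUTLL1 and 1.75, 1.62 and 0.683 CPM in CEM (edgeR adjusted p 0.00155). ZAP70, the kinase that binds the phosphorylated receptor, stood at 910.2, 955 and 474 CPM in CUTLL1 and 319, 289 and 117 CPM in CEM, and PTPN6, the phosphatase SHP-1, at 1050.4, 906 and 531 CPM in CUTLL1 and 268, 223 and 151 CPM in CEM. RASGRP1, which loads RAS with GTP, and ICOS, a co-stimulatory receptor, had log2 ratios of 2.11, 2.53 and 1.32 and 2.22, 2.24 and 3.73. Adjusted p-values of these 4 genes lay between 0.00329 and 0.0114. LCK, the first kinase of the cascade, was called higher at a control ratio of 0.54, below 2-fold. LAT was not called.

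The oncogenic factors of T-ALL, a list wider than the transcription factors by which subtypes are usually named, lay mostly on the CEM side. Of 33 genes in this list 22 were included, and of these 5 were at least 2-fold higher in CUTLL1 and 14 lower. These are 22.7% and 63.6%, against 16.3% and 28.5% of all included genes. EdgeR called 5 and 13, and the medians were -2.23, -3.02 and -3.26 in the 3 pairs. Among all 18451 included genes 3788 were called higher and 3640 lower, to set against 5 and 13 of 22 here. TAL1, a basic helix-loop-helix factor normally silenced in T cells, stood at 0.263, 0.275 and 0.281 CPM in CUTLL1 and 36.4, 36.9 and 83.2 CPM in CEM. Its 38 reads in the CUTLL1 control faced 3792 in CEM, a 138-fold difference (edgeR adjusted p 0.00194). LMO2, the LIM-domain bridge between TAL1 and its partners, had no read in the CUTLL1 control and 1894 in CEM, at least 875-fold higher in CEM. LYL1, a close relative of TAL1, stood at 0.72, 1.0 and 0.625 CPM in CUTLL1 and 16.7, 22.0 and 39.9 CPM in CEM. HHEX, a homeobox gene known as a target of LMO2 in T-ALL, stood at 0.0485, 0.0393 and 0.143 CPM in CUTLL1 and 103, 125 and 153 CPM in CEM (adjusted p 0.00155). MEF2C, a factor of early progenitors, stood at 0.339, 0.0884 and 0.115 CPM in CUTLL1 and 12, 19 and 16.3 CPM in CEM, and MYCN at 1.42, 1.37 and 0.895 CPM in CUTLL1 and 168, 165 and 33.9 CPM in CEM. In none of these 6 genes, picked from the list, did the columns of the lines overlap. How many of all genes show no overlap was not counted. A 2-fold lower level in all 3 pairs, a different measure, was seen for 17.7% of all included genes.

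NKX2-5, a heart homeobox gene that is switched on in some T-ALL lines by translocation, was present in both. It stood at 152, 149 and 61.9 CPM in CUTLL1 and 359, 378 and 459 CPM in CEM, and was called lower in CUTLL1 by edgeR (-1.51 ± 0.37, SE, adjusted p 0.0406). MYB, a regulator of blood progenitors, was likewise present in both and lower in CUTLL1, at 548, 505 and 386 CPM in CUTLL1 and 1362, 1412 and 1455 CPM in CEM. Among the factors higher in CUTLL1 were the homeobox genes MEIS1, MEIS2 and NKX2-2 and the MYC relative MYCL1. MEIS2, a cofactor of HOX proteins, stood at 11.6, 11.5 and 5.51 CPM in CUTLL1 and 1.01, 1.10 and 0.171 CPM in CEM (edgeR adjusted p 0.00785). NKX2-2 had 64 reads in CUTLL1 and none in CEM. Of 39 HOX genes 8 were included. HOXA2, with 105 reads, had none in CEM, while HOXA10 and HOXB9, with 142 and 174 reads in CEM, had none in CUTLL1. HOXB3 stood at 3.72, 2.66 and 2.38 CPM in CUTLL1 and 23.6, 20.9 and 14.5 CPM in CEM (edgeR adjusted p 0.00492).

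Factors of the normal T lineage differed between the lines in both directions. Of 47 included, 10 were at least 2-fold higher in CUTLL1 and 19 lower. These are 21.3% and 40.4%, against 16.3% and 28.5% of all included genes. EdgeR called 11 higher and 17 lower, against 3788 and 3640 of all 18451 included genes. MAF, which drives cytokine genes in helper T cells and is found in some T-ALL, stood at 50.0, 61.3 and 40.1 CPM in CUTLL1 and 0.240, 0.127 and 0.0427 CPM in CEM (adjusted p 0.00239). IKZF3, the Ikaros family member Aiolos, stood at 161, 149 and 99.3 CPM in CUTLL1 and 2.03, 1.34 and 0.598 CPM in CEM (adjusted p 0.00179). ID3, an inhibitor of E proteins, stood at 117, 142 and 73.5 CPM in CUTLL1 and 23, 18.5 and 14.7 CPM in CEM. On the CEM side ERG, an ETS factor of stem cells, stood at 0.235, 0.206 and 0.0803 CPM in CUTLL1 and 39.0, 51.9 and 120.3 CPM in CEM, and RUNX1 at 130.4, 131 and 105 CPM in CUTLL1 and 1169.9, 1187 and 660.0 CPM in CEM. GATA3, needed at many steps of T cell development, was 4.07-fold lower in the CUTLL1 control (log2 -2.03, -1.98 and -2.68), TCF7 2.29-fold lower (-1.20, -1.32 and -1.0) and SATB1 5.77-fold lower (-2.53, -2.51 and -2.91). BCL11B and IKZF1 were called higher in CUTLL1 at control ratios of 0.79 and 0.76, under 2-fold. LEF1, TCF3 and TCF12 were not called and stood at control ratios of 0.26, -0.01 and 0.16.

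The NOTCH pathway separated the lines at NOTCH3 and at a part of its targets. NOTCH receptors are cut by gamma-secretase after binding a ligand on a neighbouring cell, and the freed intracellular domain joins the DNA-binding protein RBPJ and a MAML co-activator at target genes such as those of the HES and HEY repressors. Of 41 included genes of the pathway, 17 were at least 2-fold higher in the CUTLL1 control and 8 lower, and 11 and 3 were so in all 3 pairs. EdgeR called 18 higher and 2 lower, against 3788 higher and 3640 lower among all 18451 included genes. The median ratio of the list was 0.15, 0.39 and 0.34. Among the receptors, NOTCH1 stood at 1162, 932 and 541 CPM in CUTLL1 and 453, 418 and 284 CPM in CEM (2.56-fold higher in the control, edgeR adjusted p 0.0083). NOTCH3, itself a target of NOTCH1 in T-ALL, stood at 446, 389 and 312 CPM in CUTLL1 and 42.1, 37.8 and 55.8 CPM in CEM, 10.6-fold higher (adjusted p 0.00329). In both receptors each CUTLL1 column was above each CEM column, a gap whose share among all genes was not counted. NOTCH2 was not called, with ratios of -1.20, -1.63 and -0.37. Among the ligands, the inhibitory DLL3 was higher in CUTLL1 at 1.49, 1.21 and 1.76 CPM in CUTLL1 and 0.0288, 0.0282 and 0.0854 CPM in CEM, and JAG2 lower at 0.180, 0.0589 and 0.166 CPM in CUTLL1 and 2.32, 2.64 and 2.53 CPM in CEM. MFNG, a fringe glycosyltransferase that modifies the receptors, stood at 6.84, 4.99 and 38.7 CPM in CUTLL1 and 125, 116 and 74.3 CPM in CEM and was not called (adjusted p 0.0667). The components of gamma-secretase stayed within 2-fold in the control pair except PSEN2, with 6 against 53 reads. RBPJ was not called, at -0.72, 10568 reads in CUTLL1 against 12602.

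Among the targets, NRARP, a feedback inhibitor of the NOTCH complex, stood at 197, 138 and 74.6 CPM in CUTLL1 and 0.230, 0.381 and 0.185 CPM in CEM, an 855-fold control difference (counting interval of the log2 ratio 9.17 to 10.38, edgeR adjusted p 0.00155). HES5 had 2170 reads in CUTLL1 and none in CEM, at least 522-fold higher, and stood at 15, 9.99 and 5.01 CPM in the CUTLL1 columns (adjusted p 0.00781). HES4 stood at 379, 313 and 165 CPM in CUTLL1 and 8.68, 11.1 and 16.2 CPM in CEM (adjusted p 0.00621). HEY1 stood at 11.6, 8.08 and 3.59 CPM in CUTLL1 and 0.0768, 0.0141 and 0.157 CPM in CEM (adjusted p 0.0127). DTX1, a homologue of the fly Notch modifier deltex, stood at 417, 281 and 234 CPM in CUTLL1 and 15.3, 13.7 and 35.7 CPM in CEM (adjusted p 0.00765). CR2, the complement receptor CD21, stood at 337, 338 and 175 CPM in CUTLL1 and 16.8, 9.50 and 46.5 CPM in CEM, and IGF1R, a growth factor receptor regulated by NOTCH1 in T-ALL, at 159.7, 179 and 119 CPM in CUTLL1 and 43.6, 40.8 and 24.3 CPM in CEM. MYC was called higher at 489, 436 and 242 CPM in CUTLL1 and 233, 222 and 171 CPM in CEM. In all 8 of these genes, picked from the list, each CUTLL1 column exceeded each CEM column. The share of all genes with such a gap was not counted. A 2-fold higher level in all 3 pairs, a different measure, was seen for 10.3% of all included genes. HES1, the target most often used to read NOTCH activity, did not follow: it stood at 76.0, 87.1 and 55.7 CPM in CUTLL1 and 98.6, 94.9 and 222 CPM in CEM, with ratios of -0.38, -0.12 and -2.00 and an adjusted p of 0.361. In CUTLL1 the shJMJD3 column was the lowest of the 3 for NRARP, HES4, HES5, HEY1 and DTX1. It was also the lowest for NOTCH1, MYC and HES1 and for PTPN6 and ZAP70 outside the pathway, and the highest for MFNG. Protein-coding genes took 66.9% of the reads of that column, against 81.8% in the shRenilla and 79.0% in the shUTX column of CUTLL1. How many of all genes were lowest there was not counted.

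The promoters of 4 of these targets are given to set beside their levels: 3 that were called higher in CUTLL1 and HES1, which was not called. They run from 250 bases before to 50 bases after the start of the gene in RefSeq on GRCh38.p14, written 5′ to 3′ on the gene's strand. Capitals mark TGGGAA or its reverse complement TTCCCA, the core letters bound by RBPJ. The positions are chr3:194135898-194136197 on the plus strand for HES1, and chr1:1000048-1000347, chr1:2530214-2530513 and chr9:137302222-137302521 on the minus strand for HES4, HES5 and NRARP.
HES1: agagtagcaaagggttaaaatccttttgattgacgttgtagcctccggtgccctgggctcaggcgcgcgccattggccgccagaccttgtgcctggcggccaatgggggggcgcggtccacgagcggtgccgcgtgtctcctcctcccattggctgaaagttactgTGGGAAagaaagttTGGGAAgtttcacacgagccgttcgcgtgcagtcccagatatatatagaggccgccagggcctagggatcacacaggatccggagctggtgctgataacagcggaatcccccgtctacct
HES4: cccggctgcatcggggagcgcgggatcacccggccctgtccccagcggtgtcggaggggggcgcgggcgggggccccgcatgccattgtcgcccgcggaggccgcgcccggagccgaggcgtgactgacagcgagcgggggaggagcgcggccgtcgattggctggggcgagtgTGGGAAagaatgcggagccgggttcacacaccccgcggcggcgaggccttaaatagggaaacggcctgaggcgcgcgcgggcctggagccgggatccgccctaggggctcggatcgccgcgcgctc
HES5: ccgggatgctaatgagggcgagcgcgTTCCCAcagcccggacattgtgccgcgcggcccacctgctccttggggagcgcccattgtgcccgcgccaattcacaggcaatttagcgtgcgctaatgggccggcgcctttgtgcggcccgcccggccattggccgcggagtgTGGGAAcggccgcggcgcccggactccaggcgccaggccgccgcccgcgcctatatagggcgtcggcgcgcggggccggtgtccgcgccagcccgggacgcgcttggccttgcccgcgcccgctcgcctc
NRARP: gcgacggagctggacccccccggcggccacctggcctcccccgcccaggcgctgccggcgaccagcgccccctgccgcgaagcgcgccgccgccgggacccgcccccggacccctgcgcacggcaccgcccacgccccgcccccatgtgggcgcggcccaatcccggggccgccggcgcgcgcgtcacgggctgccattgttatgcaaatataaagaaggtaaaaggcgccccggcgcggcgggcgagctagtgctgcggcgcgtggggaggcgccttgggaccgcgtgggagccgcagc
HES1 held 2 matches, HES4 1, HES5 2 and NRARP 0. Of 35116 RefSeq promoters of this length 8439 (24%) held at least 1 match, as did 10 of 42 (23.8%) of the pathway list. The matches are a description of the letters in these windows. The promoter of HES1, within 2-fold in the control pair, held as many matches as that of HES5, which had no read in the CEM control.

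**Figure D4:**
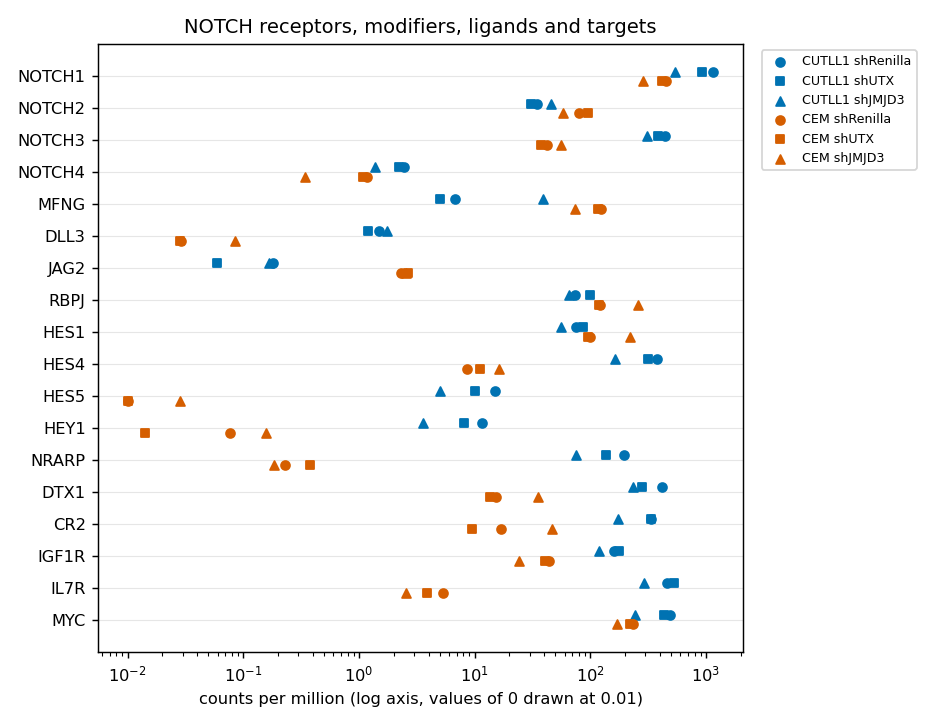
Level of 18 genes of the NOTCH pathway in CPM on a log axis, blue for the 3 CUTLL1 columns and orange for the 3 CEM columns, with shapes for the hairpins and values of 0 drawn at 0.01. NRARP lies between 74.6 and 197 in CUTLL1 and below 1 in CEM, while HES1 lies between 55.7 and 87.1 in CUTLL1 and between 94.9 and 222 in CEM.

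Of 34 included tumour suppressors of T-ALL, 5 were at least 2-fold higher in CUTLL1 and 10 lower (14.7% and 29.4%, near the 16.3% and 28.5% of all included genes), with 6 and 12 called by edgeR. CDKN2A, which encodes 2 unrelated cell cycle inhibitors and is the gene most often deleted in T-ALL, stood at 16.4, 14.4 and 26.7 CPM in CUTLL1 and 1.30, 1.36 and 1.04 CPM in CEM (adjusted p 0.005). MTAP, a salvage enzyme gene near CDKN2A, stood at 67.1, 50.2 and 47.4 CPM in CUTLL1 and 1.30, 0.918 and 1.82 CPM in CEM (adjusted p 0.00214). CDKN2B, the next gene on the other side of CDKN2A, had 0 reads in CUTLL1 and 38 in CEM and was not included. CDKN2C and CDKN1A were also higher in CUTLL1. Lower in CUTLL1 were ETV6, at 13.1, 16.7 and 7.45 CPM in CUTLL1 and 84.7, 92.9 and 127 CPM in CEM, WT1, at 6.09, 7.53 and 6.35 CPM in CUTLL1 and 33.1, 28.4 and 86.8 CPM in CEM, and SUZ12, at 73.8, 67.5 and 62.2 CPM in CUTLL1 and 219.7, 193 and 203 CPM in CEM. PHF6, FBXW7, EZH2 and RB1 were within 2-fold in the control pair and were not called.

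IL7R, the receptor chain for the survival cytokine IL-7 and a NOTCH1 target in T cells, was higher in CUTLL1. It stood at 465, 524 and 294 CPM in CUTLL1 and 5.37, 3.90 and 2.56 CPM in CEM, 86.7-fold higher in the CUTLL1 control (counting interval of the log2 ratio 6.32 to 6.56, edgeR adjusted p 0.00132). IL7R and most genes named in the lists below were picked for a large control ratio. EdgeR tested the same control columns, so their adjusted p-values are a description and not support apart from that choice. The 11 included JAK and STAT genes are a subset picked from the list of cytokine receptors and JAK-STAT genes given below. EdgeR called 7 of them lower in CUTLL1 and 4 were not called, against 3640 called lower among all 18451 included genes. STAT5A stood at 4.60, 7.46 and 8.13 CPM in CUTLL1 and 266, 248 and 473 CPM in CEM (adjusted p 0.00193) and JAK3, which pairs with the common gamma chain, at 2.00, 1.13 and 8.76 CPM in CUTLL1 and 77.2, 67.5 and 50.8 CPM in CEM (adjusted p 0.0258). CISH and SOCS2, feedback inhibitors induced by STAT5, were lower in CUTLL1 with 48 and 36 reads against 522 and 406. IL10RA stood at 13.3, 10.9 and 13.0 CPM in CUTLL1 and 0.0384, 0.0282 and 0.0569 CPM in CEM. Over 42 included cytokine receptors and JAK-STAT genes, 9 passed 2-fold upward in CUTLL1 and 16 downward, and edgeR called 11 and 17. The shares at 2-fold were 21.4% and 38.1%, against 16.3% and 28.5% of all included genes. Of 33 chemokine receptors and migration genes 7 were higher and 12 lower at 2-fold (21.2% and 36.4%), with 8 called in each direction. CCR4, a receptor of skin-homing T cells, stood at 0.436, 0.609 and 0.184 CPM in CUTLL1 and 156, 126 and 558 CPM in CEM, and S1PR1, the exit receptor of thymocytes, at 4.39, 4.74 and 2.53 CPM in CUTLL1 and 104, 97.0 and 24.9 CPM in CEM. CX3CR1 and the integrin ITGA1 were higher in CUTLL1, at log2 ratios of 5.56, 6.56 and 5.96 and 3.16, 4.91 and 3.88.

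Genes that respond to interferon were lower in CUTLL1 as a group. Of 56 included, 42 were at least 2-fold lower in the CUTLL1 control, 35 in all 3 pairs, and 4 were higher. EdgeR called 33 lower and 6 higher, against 3640 lower and 3788 higher among all 18451 included genes. The median was -2.49, -2.53 and -1.60. TRIM22, a restriction factor, stood at 0.0208, 0.0982 and 0.0229 CPM in CUTLL1 and 90.1, 71.5 and 27 CPM in CEM, with 3 reads in CUTLL1 against 9391 (log2 -11.86, counting interval -14.36 to -10.54, adjusted p 0.00239). MB21D1, the DNA sensor cGAS, stood at 0.0416, 0.0589 and 0 CPM in CUTLL1 and 19.8, 21.0 and 21.5 CPM in CEM. GBP5 and GBP4, guanylate-binding proteins, had 8 and 3 reads in CUTLL1 and 1435 and 333 in CEM, and OAS3, which makes the activator of RNase L, stood at 1.07, 0.727 and 10.8 CPM in CUTLL1 and 63.0, 76.6 and 114 CPM in CEM. No interferon was applied per the protocols. Of 21 class I presentation genes 6 were lower and 1 higher at 2-fold, with 8 and 1 called. The share lower, 28.6%, was near the 28.5% of all included genes. NLRC5, the transactivator of MHC class I genes, stood at 0.790, 0.589 and 1.61 CPM in CUTLL1 and 34.2, 30.8 and 38.2 CPM in CEM (adjusted p 0.00331). HLA-B stood at 31.5, 31.2 and 47.3 CPM in CUTLL1 and 215, 226 and 499 CPM in CEM, and HLA-C was lower, with a control ratio of -1.38. HLA genes differ between people in sequence, and their counts depend on how well reads fit the reference. Of 15 class II genes 7 were included, with 2 called lower and 1 higher.

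The 7 included receptors with FAS or TNFRSF symbols are a subset picked by symbol from the apoptosis list given below. EdgeR called 4 of them lower in CUTLL1 and 3 were not called, against 3640 called lower among all 18451 included genes. TNFRSF10C, a decoy receptor for TRAIL, had ratios of -4.46, -1.43 and 3.44 and was not called. FAS stood at 1.25, 0.658 and 2.06 CPM in CUTLL1 and 20.1, 13.6 and 29.1 CPM in CEM (edgeR adjusted p 0.00288), TNFRSF1B, the second TNF receptor, at 0.0762, 0.0786 and 0.0287 CPM in CUTLL1 and 32.6, 31.0 and 74.2 CPM in CEM (adjusted p 0.0036), and the ligand TNFSF10, or TRAIL, had 49 reads against 832. The BH3-only gene BMF was higher in CUTLL1 (log2 2.56, 3.86 and 5.12). Of 39 apoptosis genes 6 were higher and 15 lower at 2-fold, with 8 and 13 called. The shares at 2-fold were 15.4% and 38.5%, against 16.3% and 28.5% of all included genes. PMAIP1, or NOXA, another BH3-only gene, was higher at 244, 223 and 182 CPM in CUTLL1 and 61.8, 49.2 and 48.0 CPM in CEM.

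In the insulin and PI3 kinase list of 37 genes, 9 were higher and 11 lower at 2-fold, with 9 called each way, and the shares at 2-fold were 24.3% and 29.7%, against 16.3% and 28.5% of all included genes. IRS2, the insulin receptor substrate, stood at 42.3, 47.2 and 27.5 CPM in CUTLL1 and 0.0192, 0.0847 and 0 CPM in CEM, with 6115 reads against 2 (log2 10.79, counting interval 9.25 to 14.15). INSR, the insulin receptor, stood at 0.402, 0.324 and 0.539 CPM in CUTLL1 and 35.2, 31.7 and 14 CPM in CEM. Of 40 genes of response to antileukaemic drugs, 7 were higher and 10 lower (17.5% and 25%, near the shares of all included genes), with 10 and 8 called. SLC29A1, which imports nucleoside drugs such as cytarabine, stood at 231, 155 and 171 CPM in CUTLL1 and 31.0, 32.9 and 53.4 CPM in CEM (adjusted p 0.00627). TOP1, the target of camptothecins, stood at 78.2, 77.1 and 74.2 CPM in CUTLL1 and 515, 513 and 396 CPM in CEM (adjusted p 0.0035), and HPRT1, which activates thiopurines, at 22.4, 28.2 and 10.9 CPM in CUTLL1 and 68.7, 68.1 and 87.5 CPM in CEM. The efflux pump genes ABCG2 and ABCB1 had 2 and 4 reads in CUTLL1 and 375 and 73 in CEM.

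Of 33 included H3K27 demethylase and Polycomb genes, 1 was at least 2-fold higher and 9 lower in the CUTLL1 control, 23 were within 2-fold, and edgeR called 4 higher and 9 lower. The share lower, 27.3%, was near the 28.5% of all included genes, and the share higher was 3.03% against 16.3%. Besides both demethylases, SUZ12, PCGF2 and RYBP, subunits of the Polycomb complexes, were lower, at control ratios of -1.57, -2.20 and -1.58, and PCGF5 was higher at 1.45. EZH2, the methyltransferase, stood at 92.4, 83.3 and 85.5 CPM in CUTLL1 and 98.3, 99.1 and 98.7 CPM in CEM and was not called. Of 16 DNA methylation genes 3 were higher and 2 lower at 2-fold, with 4 and 2 called. UHRF1, which guides maintenance methylation, was higher at 254, 209.7 and 307 CPM in CUTLL1 and 80.3, 79.4 and 73.7 CPM in CEM. Of 15 imprinted genes 4 were higher and 5 lower (26.7% and 33.3%, against 16.3% and 28.5% of all included genes), with 4 and 5 called. MEST, expressed from the paternal copy in most tissues, stood at 78.6, 62.6 and 26.1 CPM in CUTLL1 and 0.480, 0.367 and 0.228 CPM in CEM.

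The medians of 3 metabolic and cell cycle lists lay above 0 in the shRenilla and shUTX pairs and below 0 in the shJMJD3 pair. Of 38 genes of glycolysis and hypoxia 20 were at least 2-fold higher in the CUTLL1 control and 1 lower. These are 52.6% and 2.63%, against 16.3% and 28.5% of all included genes. In all 3 pairs 4 and 1 were so, and edgeR called 6 and 1. The medians were 1.11, 1.26 and -1.08. LDHA, lactate dehydrogenase A, stood at 744, 972 and 737 CPM in CUTLL1 and 151, 259 and 1535 CPM in CEM, and BNIP3, a mitophagy receptor induced by hypoxia, at 58.5, 107 and 57.0 CPM in CUTLL1 and 10.2, 16.7 and 248 CPM in CEM. In both genes it was the shJMJD3 column of CEM that stood apart, above the other 2 CEM columns, and neither was called. ALDOC, or aldolase C, was called higher at 152, 345 and 148 CPM in CUTLL1 and 3.27, 2.82 and 20.5 CPM in CEM (adjusted p 0.0203), and EPAS1, or HIF2A, lower at log2 -4.71, -4.52 and -4.10. Of 26 genes of cholesterol synthesis 10 were higher and 1 lower at 2-fold (38.5% and 3.85%), with 7 and 1 called. The medians were 0.79, 0.94 and -0.61. CYP51A1, a demethylase of lanosterol, was called at 26.3, 26.7 and 37.4 CPM in CUTLL1 and 4.49, 3.28 and 12.4 CPM in CEM. Of 53 genes of S phase and G2/M 25 were higher and 3 lower in the control pair (47.2% and 5.66%), with 14 and 1 called. The medians were 0.93, 0.73 and -0.34. BUB1, a kinase of the spindle checkpoint, had ratios of 2.33, 1.93 and -0.04 and was not called, and TTK, of the same checkpoint, 1.99, 1.77 and 0.34 and was called.

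Markers of other blood cell types were read in both lines at low numbers, with exceptions on each side. Of 8 included B lineage markers 4 were called lower in CUTLL1 and 2 higher. CD79A, a chain of the B cell receptor that is also found in some T-ALL, stood at 2.10, 1.89 and 4.11 CPM in CUTLL1 and 74.7, 64.5 and 34.4 CPM in CEM, and CR2, given above, made up most of the summed B lineage level of 396 CPM in CUTLL1, against 136 CPM in CEM. Of 9 myeloid markers 3 were called lower and 2 higher, with 32.0 and 24.1 CPM in sum. Of 13 NK and cytotoxic markers 2 were called in each direction, with 240.4 and 153 CPM in sum: GZMA, a granzyme, stood at 0.0139, 0.0196 and 0.0574 CPM in CUTLL1 and 13.5, 7.84 and 20.5 CPM in CEM, and NCAM1, or CD56, at 13.8, 16.6 and 8.28 CPM in CUTLL1 and 0.441, 0.988 and 1.31 CPM in CEM. Of 3 erythroid and megakaryocyte markers 1 was called lower. Of 8 fibroblast and epithelial markers 4 were called lower and 2 higher, with 539 and 997 CPM in sum, most of it from VIM, at 529 and 832 CPM. All 3 included cancer-testis genes were called lower, LIN28B, PAGE5 and PRAME.

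The RNA classes differed in 1 direction each. All 62 included histone genes were at least 2-fold higher in CUTLL1 in each of the 3 pairs, with 61 called by edgeR and medians of 7.90, 7.98 and 9.25. HIST1H3H stood at 3071, 3480.4 and 2379 CPM in CUTLL1 and 3.03, 2.65 and 1.96 CPM in CEM. Of 261 snoRNA and scaRNA genes 201 were higher and 11 lower, with 188 and 5 called. SNORD17 stood at 1224, 1691 and 1151 CPM in CUTLL1 and 2.99, 2.44 and 2.26 CPM in CEM. All 12 included mitochondrially encoded messages were at least 2-fold lower in CUTLL1 in each pair and called lower, at a median of -5.67 in the control pair. MT-ND4, a subunit of respiratory complex I, stood at 74.9, 91.0 and 128 CPM in CUTLL1 and 5421, 6552 and 9953 CPM in CEM. The part of RNA selection in these differences was not tested. Ribosomal protein genes lay close to the median of all genes in the control pair and the shUTX pair, but less so elsewhere. Their median was 0.07 in the shJMJD3 pair, 0.39 with the larger CUTLL1 column and 0.63 with the remainder. The medians of all included genes there were -0.28, -0.43 and -0.87. Of 82 included, 66 were within 2-fold in the control pair and the median was -0.24, with 9 called higher and 7 lower. RPL28 stood apart at 98.0, 119.6 and 97.3 CPM in CUTLL1 and 1499, 2299.9 and 2303 CPM in CEM. These genes have many processed copies in the genome, and no source used here says how reads that fit several copies were counted.

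**Figure D5:**
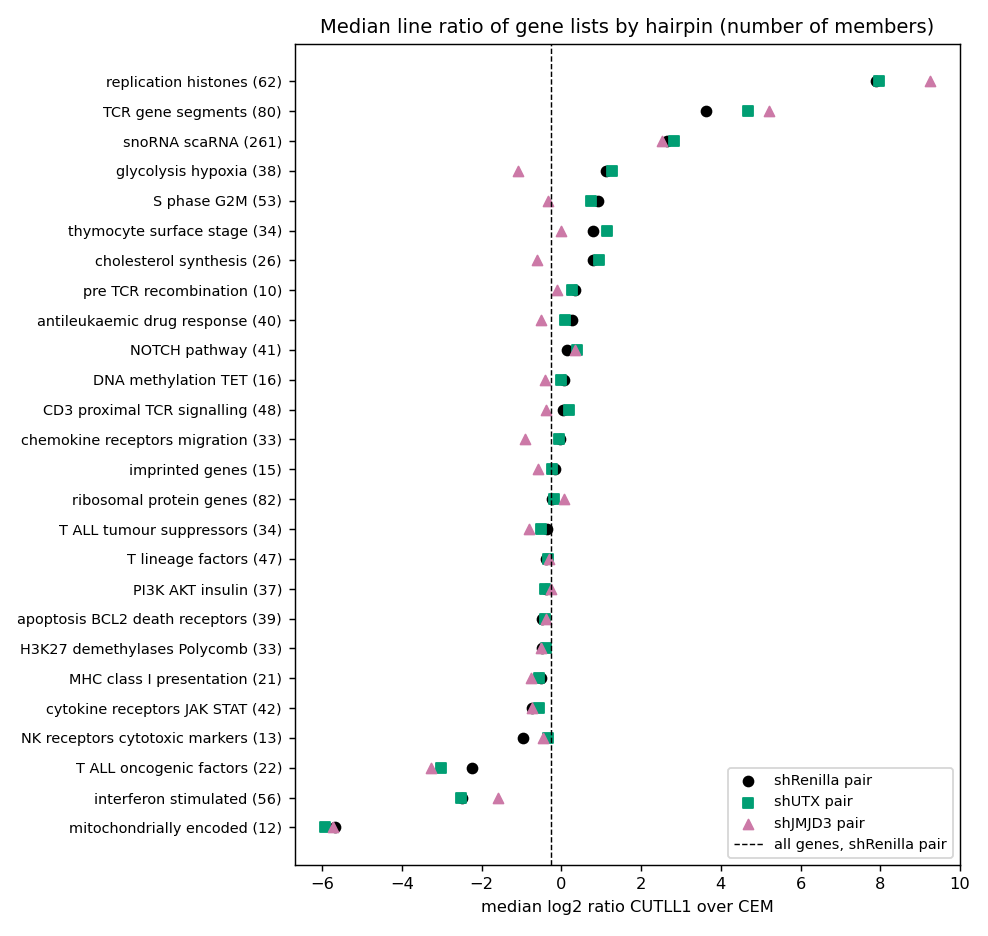
Median log2 ratio of CUTLL1 over CEM for gene lists with at least 10 included members, with the number of members in brackets, in the shRenilla (black), shUTX (green) and shJMJD3 (pink) pairs; the dashed line is the median of all genes in the shRenilla pair. Histone genes lie between 7.90 and 9.25 and interferon-stimulated genes between -2.53 and -1.60, and the glycolysis, cell cycle and cholesterol lists cross from above 0 in the first 2 pairs to below 0 in the shJMJD3 pair.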

How the data were processed

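RNA from 14 samples of CUTLL1 and CEM was purified with a Qiagen column kit, selected for poly-A or depleted of ribosomal RNA, and read as 50-base single reads from dUTP libraries, per the labels' protocols. CASAVA, TopHat and the hg19 build are named, without versions, per the submitters' processing notes. No source used here names the counting program or the annotation. The authors deposited 6 DEGseq tables with raw read counts, per the file headers, 1 pooled column per hairpin and line. The CUTLL1 Renilla column differed between the tables that hold it, and the one deposited beside shUTX was used.

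Columns were joined on the gene identifier, and genes with 50 counts in either control were kept. Control ratios were log2 of counts plus 0.5, scaled to column totals, with exact binomial (Clopper-Pearson) 95% intervals. Shares have Wilson intervals. Both cover counting error alone. A column at 0 was set to 3 counts for lower bounds. EdgeR 4.0.16 (R 4.3.3) tested line over 6 columns with hairpin as a block, TMM factors, filterByExpr and Benjamini-Hochberg adjustment over 23112 genes. The common coefficient of variation was 0.412. Simulated counts were drawn with a smaller spread than these data and with no hairpin effect. On them the test recovered 76 of 100 genes changed 2-fold and 100 of 100 changed 8-fold, with 10 false calls. These figures do not give its power or its rate of false calls on the data here. DESeq2 1.42.0 and the other settings are in the closing section.

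Identifiers were matched to GENCODE 29 for biotypes (17403 of 18451 included genes). That release and the RefSeq promoters (GRCh38.p14) are of another assembly than the counts. GENCODE 29 also gave each gene's chromosome and its neighbours, and no gene coordinates of it are printed. The genes named are KDM6A and KDM6B, the 12 higher and 12 lower protein-coding genes with the largest smallest ratio over the 3 pairs at 500 or more counts (receptor segments and sex-linked markers left out), up to 8 members of each list with the largest control ratio, and members of the stage, receptor, factor, NOTCH, HOX and suppressor lists. ACOT11, ADAP2, CAAP1, CDKN2B, RN7SK and the markers at 0 were named outside that rule, after their values were seen. For genes picked by their ratios, the edgeR test uses the same columns and is not independent of that choice. The lists and the comparison were chosen with earlier results of these data known. No other sample-level column was left out. Some genes of the lists are not reported here.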

Additional observations from a re-analysis of the deposited data

Results flagged for a closer look

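The median log2 ratio had opposite signs in the shRenilla and shJMJD3 pairs for 10 of 34 gene lists, and in 3 of them it was at least 0.5 from 0 in both, a difference that was not tested. It was 1.11 and -1.08 for 38 genes of glycolysis and hypoxia, 0.79 and -0.61 for 26 genes of cholesterol synthesis and 0.54 and -1.13 for 9 myeloid markers. In the shUTX pair the 3 medians were 1.26, 0.94 and -0.68, so the first 2 lists followed the shRenilla pair and the myeloid markers the shJMJD3 pair. Of the myeloid markers CSF3R was lower in CUTLL1 in all 3 pairs, at -5.17, -4.79 and -5.79, and CSF1R higher, at 2.74, 2.89 and 3.19.

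The remainder of the larger CUTLL1 Renilla column, which no comparison of the lines used as its main value, held 12.2% of its reads in the class misc_RNA. The share was 0.0803% in the CUTLL1 control, 0.0948% in the shUTX and 5.89% in the shJMJD3 column of CUTLL1, and 0.00656% in the CEM control. The small nuclear RNA RN7SK alone took 5.31% of the remainder and 0.0634% of the CUTLL1 control.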

How the results depend on the processing

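No paired analysis was possible because each deposited column pools the replicates of a group and carries no replicate number. The block of the edgeR test is the hairpin, not the replicate. The 3001 genes at least 2-fold higher became 4797 at a minimum of 10 counts in either control, 4626 with the CUTLL1 column deposited beside shJMJD3, 1594 at 4-fold and 1726 among protein-coding genes alone. The 5258 lower became 8344 with the remainder, a setting chosen after seeing the data, 2592 at 4-fold and 3454 among protein-coding genes. Higher calls made up 36.3% of the calls, 46.5% with TMM factors, 44.0% with totals free of mitochondrial, histone and small RNA genes, 43.9% with the larger column and 49.2% in the shJMJD3 pair. The 4301 and 3994 edgeR calls ranged from 899 to 7940 higher and from 1105 to 8014 lower when 1 hairpin pair was left out, and were 970 and 1214 at an adjusted p under 0.01. They were 5355 and 5297 with DESeq2, 4918 and 4785 without the hairpin block, and 3399 and 3425 without the filter. The median of the glycolysis list was -0.57 with the remainder and -1.08 in the shJMJD3 pair. Of 185 genes named, 161 were past 2-fold in the control pair. Of these 2 changed sign with the remainder, BNIP3 at -1.15 and CD2 at -0.14, and 5 in the shJMJD3 pair, BNIP3 at -2.12, BUB1 at -0.037, KIT at -0.42, LDHA at -1.06 and TNFRSF10C at 3.44. With genes under 2-fold included, 10 and 9 of the 185 changed sign. The cause was not tested. Under TMM factors, the other totals, the prior of 2 counts, the larger column and the shUTX pair no named gene past 2-fold changed sign. With 1 pooled column per line, no spread between cultures of the control could be measured.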

Other observations

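Protein-coding genes of chromosomes 7, 14 and 18 lay higher in CUTLL1 than those of other autosomes. The median control log2 ratio was 0.21 over 621 genes of chromosome 7, 0.09 over 455 of chromosome 14 and 0.35 over 179 of chromosome 18. The other autosomes had medians between -0.41 (chromosome 17) and -0.14 (chromosome 8). On chromosomes 7 and 18 the median was also above 0 in the shUTX pair, at 0.25 and 0.42, and in the shJMJD3 pair, at 0.09 and 0.11, while chromosome 14 had 0.10 and -0.17. The share of genes at least 2-fold higher was 25.6% on chromosome 7 and 24.6% on chromosome 18, against 13.1% of all protein-coding genes. DNA copy number was not measured here and its part in these medians was not tested.

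Some gene families were chosen after their values were seen. Of 32 included protocadherin genes, which encode adhesion molecules, 27 were at least 2-fold lower in the CUTLL1 control. The fold held in all 3 pairs for 5, edgeR called 3 lower and 1 higher, and the median was -1.07, -1.09 and -0.18 in the 3 pairs. Many of the 32 carry PCDHG symbols and are close relatives. No source used here says how reads that fit several of them were counted, so the 27 may not be separate differences. All but 1 of the 6 GIMAP genes, GTPases of lymphocyte survival, were at least 2-fold lower in each of the 3 pairs, and edgeR called 3 of them lower. Of 223 zinc finger genes with ZNF symbols on chromosome 19, 71 were lower (31.8%) and 5 higher at 2-fold, with 49 and 16 called by edgeR. Of 234 on other chromosomes 68 were lower (29.1%) and 18 higher, with 58 and 36 called. The shares lower were near the 26.2% of all protein-coding genes, of which 17.4% were lower in all 3 pairs. The shares higher, 2.24% on chromosome 19 and 7.69% on the others, were below the 13.1% of all protein-coding genes.

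Around CDKN2A, the next genes beyond MTAP and CDKN2B in the order of the annotation had 0 or 1 read in both controls, up to CAAP1, with 7282 reads in CUTLL1 and 2188 in CEM (log2 1.26, 1.38 and 1.22 in the 3 pairs). MTAP and CDKN2A had 135 reads each in CEM, of 104190473.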
